A study of Mus musculus with 24 samples.

Results

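The tubulin isotypes examined here were 10 genes, the 4 alpha-tubulin genes Tuba1a, Tuba1b, Tuba1c and Tuba4a and the 6 beta-tubulin genes Tubb2a, Tubb2b, Tubb3, Tubb4a, Tubb5 and Tubb6. They were found by matching their symbols to the 47643 gene identifiers of the count files, each symbol matched 1 identifier, and all 10 passed the filter on low counts that left 17178 genes in the test. Cells were sorted by green fluorescence from L4 dorsal root ganglia (DRG), and each library held 100 cells. Every mouse carried Nav1.8-Cre, which drives recombination mainly in nociceptors and in some myelinated sensory neurons, and a Rosa26-ZsGreen reporter. Control mice were Tsc2 flox/+, so that recombined control neurons kept 1 copy of Tsc2. Nav-Tsc2 mice were Tsc2 flox/null, and the null allele was present in all cells of those mice. The mice were 8 to 9 weeks old, on a mixed C57BL/6 and AJ background, and the ganglia lay opposite a sciatic nerve crush made 3 d earlier, in both genotypes. There were 4 mice of each genotype, 2 male and 2 female, and 3 technical libraries of each mouse, which were summed. Beyond the mouse, nothing in the labels gave a batch, and the p-values measure the spread between these 8 mice.

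Microtubules are built from dimers of alpha- and beta-tubulin, and mammals encode each of these in several genes, the isotypes. The isotype proteins are most alike in their folded core and differ most in the C-terminal tail, which lies on the outside of the microtubule and is where most of the enzymatic modifications of tubulin are made. Sensory neurons depend on microtubules for their very long axons, both as a scaffold and as tracks for transport. Tsc2 forms a complex with Tsc1 that holds back mTORC1, a kinase complex that promotes cell growth.

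Because isotype genes are so similar, the sequence itself set which reads could be counted. Reads were 50 bases long and only reads that matched a single place were counted, and alignments to more than 1 place made up 37.5% to 39.6% of all entries tallied by the counter in control libraries and 39.3% to 42.6% in Nav-Tsc2 libraries. The coding sequences of Tuba1a and Tuba1b differed at 23 of 1356 bases (98.3% identical), those of Tuba1b and Tuba1c at 22 of 1350, and those of Tubb2a and Tubb2b at 47 of 1338. Tubb5 and Tubb6 were the least alike of the beta genes, at 80.8%. The last 60 coding bases, stop codon included, of Tubb2a and Tubb2b are shown because they encode the tail in which isotypes are usually told apart. Sequences are from the GENCODE transcripts on GRCm38, read 5′ to 3′ on the coding strand, and capitals mark the bases that differ between the pair. Tubb2a lies at chr13:34074468-34074527 and Tubb2b at chr13:34127471-34127530, both on the minus strand.
Tubb2a: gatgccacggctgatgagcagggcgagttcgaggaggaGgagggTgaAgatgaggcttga
Tubb2b: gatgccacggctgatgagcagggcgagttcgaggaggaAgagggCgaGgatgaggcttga

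Only 3 bases told Tubb2a from Tubb2b in this stretch. None of them changes the encoded amino acid, so both genes encode the same tail here.

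The near-identical genes were also neighbours. Tuba1b (15:98931425-98934565), Tuba1a (15:98949837-98953703) and Tuba1c (15:99029891-99038110) lay in a row on chromosome 15, and Tubb2a (13:34074274-34078007) and Tubb2b (13:34126748-34130466) side by side on chromosome 13. The other members lay apart, Tuba4a on chromosome 1, Tubb3 on 8, Tubb4a and Tubb5 on 17 and Tubb6 on 18. To find how much of each gene a 50-base read could be counted from, every 50-base window of its annotated transcripts was searched for in the transcripts of all other genes, pseudogenes included. Gm49450, which overlaps Tuba1a and Tuba1b, and Gm41396, which overlaps Tuba1b, are annotated genes that are not among the identifiers of the count files, and they were left out of the search for the genes they overlap. Such overlap covered 26.2% of the exon sequence of Tuba1a and 27.4% of that of Tuba1b. In the coding sequence 5.43% of the windows of Tuba1b, 9.38% of those of Tuba1c and 13.8% of those of Tuba1a were found in no other gene. The share was 39.9% for Tubb2a and 34.9% for Tubb2b and at least 97.6% for the other members. Over all exons, which adds the untranslated ends, it was 25.7% for Tuba1b, 35.8% for Tuba1a and 47.3% for Tuba1c. Most of the windows from which the 3 clustered alpha genes could be counted thus lay outside their coding sequence. Tuba4a had 64.6%, because 37.3% of its exon sequence overlaps Stk16 on the opposite strand, and how the counting treated strand is not given in the sources used here. The search covered annotated transcripts only, since the genome sequence was not used here.

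**Figure D1:**
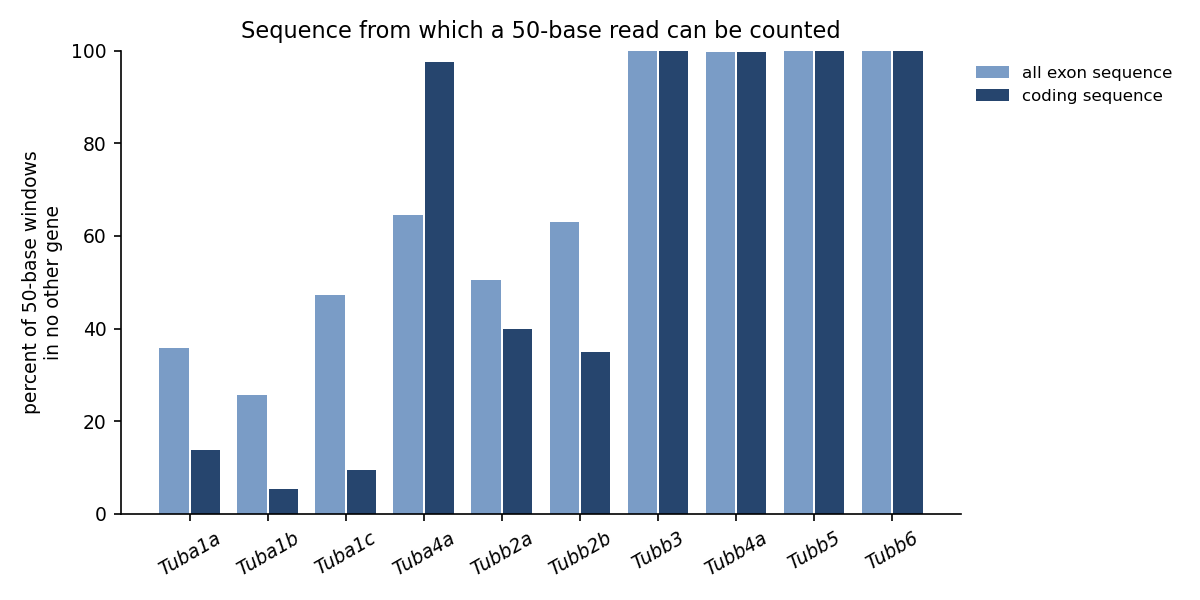
Percent of 50-base windows found in no other annotated gene, for all exon sequence (light bars) and for the coding sequence of 1 transcript (dark bars) of each of the 10 genes. In the coding sequence, Tuba1a, Tuba1b and Tuba1c lie between 5.43% and 13.8%, and Tubb3, Tubb4a, Tubb5 and Tubb6 lie at or near the full length.

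Libraries held between 8339220 and 34228180 counts on genes, and mice between 47959617 and 61290435. Levels of a gene are CPM, counts scaled by TMM to a common library total. Differences are log2 fold changes, Nav-Tsc2 over control, with the standard error (SE) from edgeR. Tsc2, the targeted gene, was at 13.4, 24.7, 21.5 and 24.1 CPM in control mice 1 to 4 and at 8.70, 8.51, 7.30 and 10.95 CPM in Nav-Tsc2 mice 1 to 4, with no overlap (log2 fold change -1.24 ± 0.22 SE, edgeR adjusted p = 0.00400). The 10 markers of sensory neurons summed to between 11219 and 12245 CPM in control and between 9704 and 10573 CPM in Nav-Tsc2 mice, without overlap, and none was at 0. Without Snap25, a synaptic protein gene that was itself called lower (4402 to 2051 CPM in the mean), the other 9 summed to between 6931 and 7720 CPM in control and between 7419 and 8744 CPM in Nav-Tsc2 mice, with overlap. Those 9 held changes in both directions, since Isl1 was also called lower (385 to 222 CPM in the mean) and Prph higher (902 to 1481 CPM). Control library 3A stood apart from the other 11 control libraries. It had the lowest level of Tuba4a, Tuba1b, Tubb3 and Tubb4a among the members and of the calcium-binding protein gene S100b (37.9 CPM, against 588 CPM or more in the others). Lowest in it were also the peptidergic marker Calca (2347 CPM, against 5285 CPM or more) and Nefh, a marker of myelinated neurons (115 CPM, against 341 CPM or more). Mrgprd, a nonpeptidergic marker, was highest in it (548 CPM). Whether this library held another mix of neuron types was not tested, and results that the library touches are also given without it.

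Compared per kb, the alpha-tubulin pool was led by Tuba1a and the beta-tubulin pool by Tubb3, the neuronal beta-tubulin widely used as a marker of neurons. Levels are given here as CPM per kb of exon windows found in no other gene. In control mice Tuba1a was at 3803 ± 244 and Tubb3 at 3164 ± 527 CPM per kb (SD, n = 4 mice), and the ranges of these 2 genes overlapped. Next came Tubb5 at 845 ± 124 and Tubb2a at 808 ± 44.0 CPM per kb, which also overlapped. Below these, each gene was separated from the next by the ranges of its 4 mice, although Tubb4a still overlapped Tubb5. These were Tubb4a at 684 ± 74.2, Tuba1b at 461 ± 9.47, Tuba4a at 129 ± 17.4 and Tubb2b at 91.9 ± 5.18 CPM per kb. Tubb6 at 6.30 ± 3.27 and Tuba1c at 3.78 ± 1.42 CPM per kb lay lowest and overlapped each other.

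In Nav-Tsc2 mice Tuba1a (4664 ± 59.3 CPM per kb, SD, n = 4 mice) and Tubb3 (4164 ± 383 CPM per kb) again led, with overlapping ranges. The middle of the order was Tubb2a at 935 ± 32.1, Tubb5 at 715 ± 11.8, Tubb4a at 585 ± 21.2 and Tuba1b at 544 ± 45.7 CPM per kb, of which only Tubb4a and Tuba1b overlapped. At the low end, Tubb2b at 165 ± 26.2 CPM per kb was now above Tuba4a. Tubb6 at 64.5 ± 6.22, Tuba4a at 54.5 ± 6.77 and Tuba1c at 46.1 ± 7.30 CPM per kb followed, each overlapping its neighbour. With all exon sequence or a single coding transcript as the length, Tuba4a and Tuba1c did not overlap. Tuba1a and Tubb3 changed places with each other when the division was by all exon sequence, as did Tubb4a and Tubb2a in control mice, whereas Tuba1c was lowest with every length used. In bulk samples fewer cells of a type and less RNA per cell cannot be told apart.

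Between the genotypes, 3 of the 10 members were called higher in Nav-Tsc2 mice, Tuba1c, Tubb6 and Tubb2b, and 1 was called lower, Tuba4a. A gene was called at an adjusted p under 0.05 (edgeR's quasi-likelihood test, Benjamini-Hochberg over all genes tested) and a log2 fold change above 0.5 or below -0.5. Over all 17178 genes tested, 9.12% were called higher and 8.0% lower. The ranges of the genotypes did not overlap for 8 of the 10 members, 7 higher and 1 lower, where 14.6% of all genes tested were higher and 12.3% lower without overlap. The median log2 fold change was 0.27 over the members and 0.01 over all genes tested. Without a limit on the fold change, Tuba1a and Tubb3 also passed, which made 5 members higher and 1 lower, where 10.8% of all genes were higher and 10.2% lower.

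**Figure D2:**
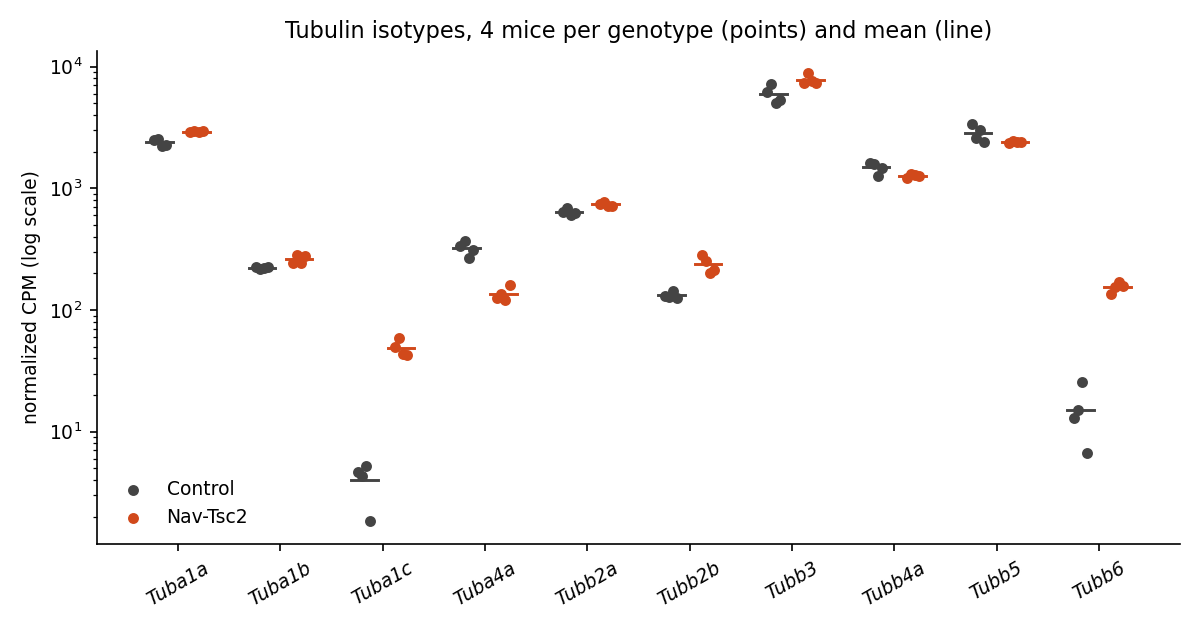
Normalized CPM on a log scale of the 10 tubulin genes in the 4 control (grey) and 4 Nav-Tsc2 (orange) mice, with 1 point per mouse and a line at the mean. Tuba1c runs from 1.83 to 5.23 CPM in control and from 42.8 to 59.2 CPM in Nav-Tsc2 mice, Tubb6 from 6.69 to 25.5 CPM and from 135 to 171 CPM, and only Tubb4a and Tubb5 overlap between the genotypes.

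Of the alpha-tubulin genes, Tuba1c, which is expressed in many tissues, had the largest change. It was at 4.68, 4.28, 5.23 and 1.83 CPM in control mice 1 to 4 and at 49.9, 59.2, 43.1 and 42.8 CPM in Nav-Tsc2 mice 1 to 4. All Nav-Tsc2 mice were above all control mice, and control mouse 4 was the lowest of its group. The mean of 48.8 ± 7.73 CPM was 12.2-fold higher than that of 4.00 ± 1.50 CPM (SD, n = 4 mice each; log2 fold change 3.60 ± 0.30 SE, edgeR adjusted p = 9.36e-05). Among the 12 libraries of a genotype, the lowest, median and highest were 1.12, 3.83 and 7.38 CPM in control and 32.3, 52.0 and 67.7 CPM in Nav-Tsc2. No library of either genotype reached into the range of the other.

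Tuba4a moved the other way. This gene encodes the alpha-tubulin that, unlike most, lacks the C-terminal tyrosine in its gene sequence. It was at 336, 369, 266 and 312 CPM in control mice 1 to 4 and at 125, 135, 121 and 159 CPM in Nav-Tsc2 mice 1 to 4, without overlap. Its mean fell from 321 ± 43.2 to 135 ± 16.8 CPM (SD, n = 4 mice each), which is 2.37-fold (log2 fold change -1.25 ± 0.12 SE, edgeR adjusted p = 0.000209). The libraries had a lowest, median and highest value of 36.3, 332 and 525 CPM in control and of 91.6, 132 and 191 CPM in Nav-Tsc2. The control value of 36.3 CPM was library 3A, the lowest of all 24, and the next lowest control library was at 168 CPM. Without library 3A the log2 fold change of Tuba4a was -1.33 ± 0.10 (SE, edgeR adjusted p = 4.26e-05). Stk16, a kinase gene chosen after its values were seen because it overlaps Tuba4a, was at 32.7 ± 6.42 CPM in control and 34.0 ± 3.69 CPM in Nav-Tsc2 mice (SD, n = 4 mice each; log2 fold change 0.06 ± 0.15 SE, edgeR adjusted p = 0.837).

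Tuba1a, the main alpha-tubulin of developing and adult neurons, was at 2500, 2532, 2242 and 2263 CPM in control mice 1 to 4 and at 2902, 2947, 2885 and 2964 CPM in Nav-Tsc2 mice 1 to 4. The genotypes did not overlap, and the Nav-Tsc2 mice lay close together. The adjusted p passed (0.0141 from edgeR), but the log2 fold change of 0.29 ± 0.07 (SE), or 22.6%, was below the limit. Tuba1b, a widely expressed alpha-tubulin, was at 227, 217, 219 and 225 CPM in control mice and at 242, 285, 244 and 276 CPM in Nav-Tsc2 mice, again without overlap. Its log2 fold change of 0.24 ± 0.08 (SE) did not pass (edgeR adjusted p = 0.0594), nor did the value of 0.21 ± 0.08 (SE) without library 3A (edgeR adjusted p = 0.0863). Of the 12 control libraries, 7 lay below every Nav-Tsc2 library for Tuba1a and 6 for Tuba1b, so the genotypes overlapped at the level of libraries.

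Of the beta-tubulin genes, Tubb6, which is expressed at a low level in most adult tissues, had the largest change. It was at 13.0, 15.0, 25.5 and 6.69 CPM in control mice 1 to 4 and at 135, 155, 171 and 156 CPM in Nav-Tsc2 mice 1 to 4. Every Nav-Tsc2 mouse was above every control mouse, and the control mice differed more among themselves, relative to their mean, than the Nav-Tsc2 mice did. The coefficient of variation between mice was 51.9% in control and 9.65% in Nav-Tsc2. The mean of 154 ± 14.9 CPM was 10.2-fold higher than that of 15.0 ± 7.80 CPM (SD, n = 4 mice each; log2 fold change 3.35 ± 0.34 SE, edgeR adjusted p = 0.000249). The lowest, median and highest libraries were at 2.02, 10.1 and 40.1 CPM in control and at 82.1, 150 and 248 CPM in Nav-Tsc2, without overlap. Unlike Tuba1c, Tubb6 could be counted over its whole length, since no window of it was found in another gene.

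Tubb2b, a beta-tubulin known from developing neurons, was at 130, 129, 142 and 125 CPM in control mice 1 to 4 and at 281, 254, 199 and 213 CPM in Nav-Tsc2 mice 1 to 4. The mice did not overlap, and Nav-Tsc2 mice 1 and 2, the males, were above mice 3 and 4, the females. The mean rose by 79.9%, from 132 ± 7.43 to 237 ± 37.5 CPM (SD, n = 4 mice each; log2 fold change 0.85 ± 0.12 SE, edgeR adjusted p = 0.000999). The 12 libraries ran from 67.6 over a median of 134 to 175 CPM in control and from 194 over 239 to 300.4 CPM in Nav-Tsc2, without overlap. Its neighbour and near copy Tubb2a was at 634, 683, 601 and 625 CPM in control mice and at 743, 768, 713 and 719 CPM in Nav-Tsc2 mice. These also did not overlap, but the log2 fold change of 0.21 ± 0.07 (SE) did not pass (edgeR adjusted p = 0.0594). Whether the changes of Tubb2a and Tubb2b differ from each other was not tested.

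Tubb3 was at 6146, 7190, 4983 and 5313 CPM in control mice 1 to 4 and at 7285, 8824, 7629 and 7358 CPM in Nav-Tsc2 mice 1 to 4. The highest control mouse, at 7190 CPM, was just below the lowest Nav-Tsc2 mouse, at 7285 CPM. The log2 fold change was 0.40 ± 0.12 (SE, edgeR adjusted p = 0.0432), so Tubb3 passed the adjusted p and not the limit on the fold change. Without control mouse 2, the highest of its group, the log2 fold change was just past the limit at 0.503 (edgeR adjusted p = 0.0136). Leaving out each mouse in turn gave edgeR adjusted p-values between 0.0136 and 0.130. Only the fit without control mouse 2 was under 0.05, and leaving out any other mouse gave 0.0692 or more. With DESeq2 size factors the edgeR adjusted p was 0.0523, and with upper-quartile scaling it was 0.0625. Without library 3A, which was at 2916 CPM where the other control libraries were at 4424 CPM or more, the log2 fold change was 0.35 (edgeR adjusted p = 0.0405).

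Tubb5, a beta-tubulin of most cell types, and Tubb4a, a beta-tubulin of the nervous system, were the members whose mice overlapped. Tubb5 was at 3348, 2599, 3002 and 2421 CPM in control mice 1 to 4 and at 2368, 2459, 2399 and 2384 CPM in Nav-Tsc2 mice 1 to 4. Control mouse 4 lay within the Nav-Tsc2 range, and the SD was 416 CPM in control and 39.8 CPM in Nav-Tsc2 mice. A log2 fold change of -0.24 ± 0.10 (SE) did not pass (edgeR adjusted p = 0.123). Tubb4a was at 1619, 1594, 1266 and 1467 CPM in control mice and at 1214, 1320, 1295 and 1258 CPM in Nav-Tsc2 mice, with control mouse 3 inside the Nav-Tsc2 range. Its log2 fold change was -0.22 ± 0.09 (SE, edgeR adjusted p = 0.103). Control mouse 3 includes library 3A, at 944 CPM, and without that library the value for Tubb4a was -0.26 ± 0.08 (SE, edgeR adjusted p = 0.0353), still within the limit on the fold change.

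**Figure D3:**
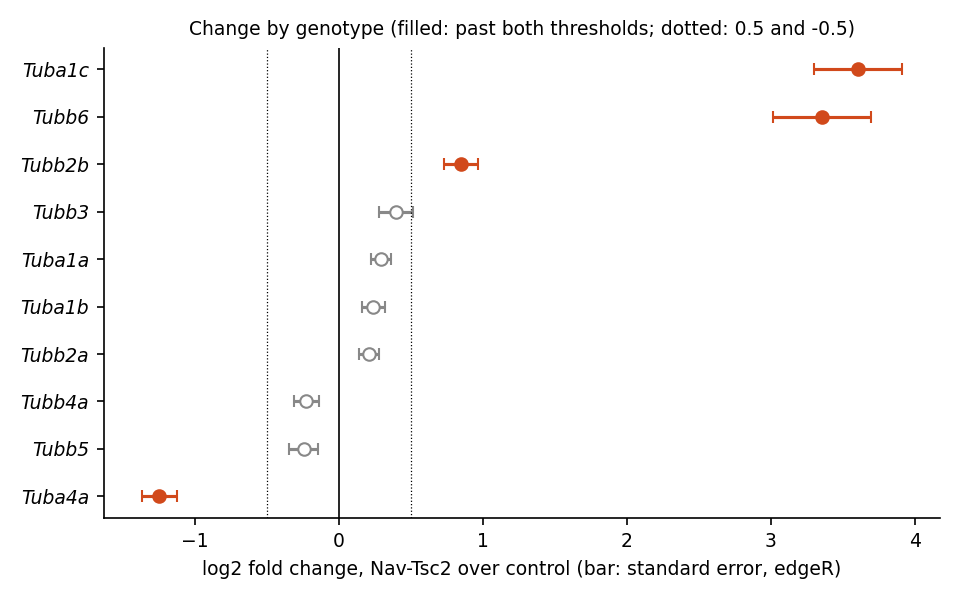
Log2 fold change, Nav-Tsc2 over control, of the 10 tubulin genes with the standard error from edgeR as the bar, in order of size. Filled points passed both the adjusted p and the limit of 0.5 in either direction (dotted lines), namely Tuba1c at 3.60, Tubb6 at 3.35, Tubb2b at 0.85 and Tuba4a at -1.25, and the other 6 lie between -0.24 and 0.40.

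The libraries of a mouse, each of 100 cells, spread more for some isotypes than for others. In control mice the median coefficient of variation among the 3 libraries of a mouse was 5.84% for Tuba1a, 9.54% for Tubb2a and 10.9% for Tubb5, but 24.8% for Tubb2b, 44.9% for Tuba4a, 47.1% for Tubb6 and 52.2% for Tuba1c. In Nav-Tsc2 mice it was 18.1% for Tuba4a, 16.4% for Tuba1c and 36.7% for Tubb6, but 8.92% for Tubb2b, below Tuba1a at 13.6%. Among control samples of 100 cells the spread was thus widest for the 4 called isotypes, Tuba4a among them although its control level was 321 CPM. Of the control libraries, 10 of 12 lay above every Nav-Tsc2 library for Tuba4a, 8 for Tubb4a and 7 for Tubb5.

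**Figure D4:**
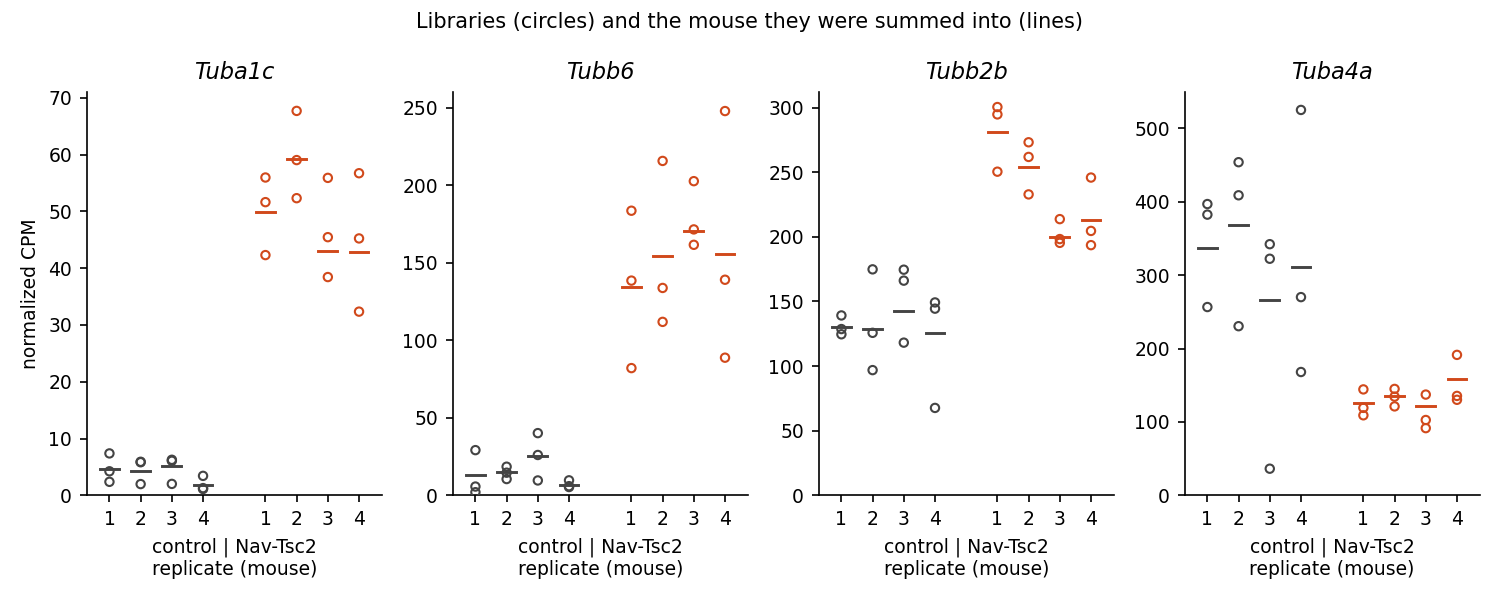
Normalized CPM in each library (circles) and in the mouse from the sum of its 3 libraries (line) for the 4 called genes, with control mice in grey and Nav-Tsc2 mice in orange and an axis from 0 in each panel. For Tuba1c, Tubb6 and Tubb2b no library overlaps between the genotypes, and for Tuba4a the control library at 36.3 CPM, from mouse 3, lies below all others.

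The make-up of the alpha and beta pools was described as the share of each gene in the summed CPM per kb of its family's members, with no test. Tubb4b, a beta-tubulin gene outside the members, was not part of the beta sum. Its mean was 508 CPM in control and 383 CPM in Nav-Tsc2 mice. In the alpha pool Tuba1a held 86.5% ± 0.496 in control and 87.9% ± 0.770 in Nav-Tsc2 mice (SD, n = 4 mice each), and Tuba1b held 10.5% ± 0.659 and 10.2% ± 0.654. The ranges of both overlapped between the genotypes. With plain counts (81.4% and 86.8%) or with all exon sequence as the length (86.5% and 89.2%), however, the share of Tuba1a was higher in Nav-Tsc2 mice without overlap. Tuba4a made up 2.93% ± 0.253 in control and 1.02% ± 0.109 in Nav-Tsc2 mice, and Tuba1c 0.0859% ± 0.0328 and 0.868% ± 0.131, each without overlap. In Nav-Tsc2 mice the shares of Tuba4a and Tuba1c overlapped each other on this scale, but not with plain counts or with all exon sequence as the length.

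In the beta pool Tubb3 held 56.3% ± 3.28 in control and 62.7% ± 1.54 in Nav-Tsc2 mice (SD, n = 4 mice each), without overlap. Tubb5 held 15.2% ± 2.54 and 10.8% ± 0.516, and Tubb4a 12.2% ± 0.768 and 8.84% ± 0.373, both lower without overlap although their CPM overlapped. The shares of a pool depend on each other, since a higher share of Tubb3 lowers those of other genes, and neither Tubb5 nor Tubb4a was called. Tubb2a held 14.5% ± 0.988 and 14.1% ± 0.617, with overlap. Tubb2b held 1.66% ± 0.244 and 2.50% ± 0.409 and Tubb6 0.115% ± 0.0682 and 0.975% ± 0.105, both higher without overlap. The summed level of the 10 members was 9996 ± 888 CPM per kb in control and 11937 ± 504 CPM per kb in Nav-Tsc2 mice, also without overlap. Tuba1a and Tubb3 accounted for most of that sum in both genotypes.

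**Figure D5:**
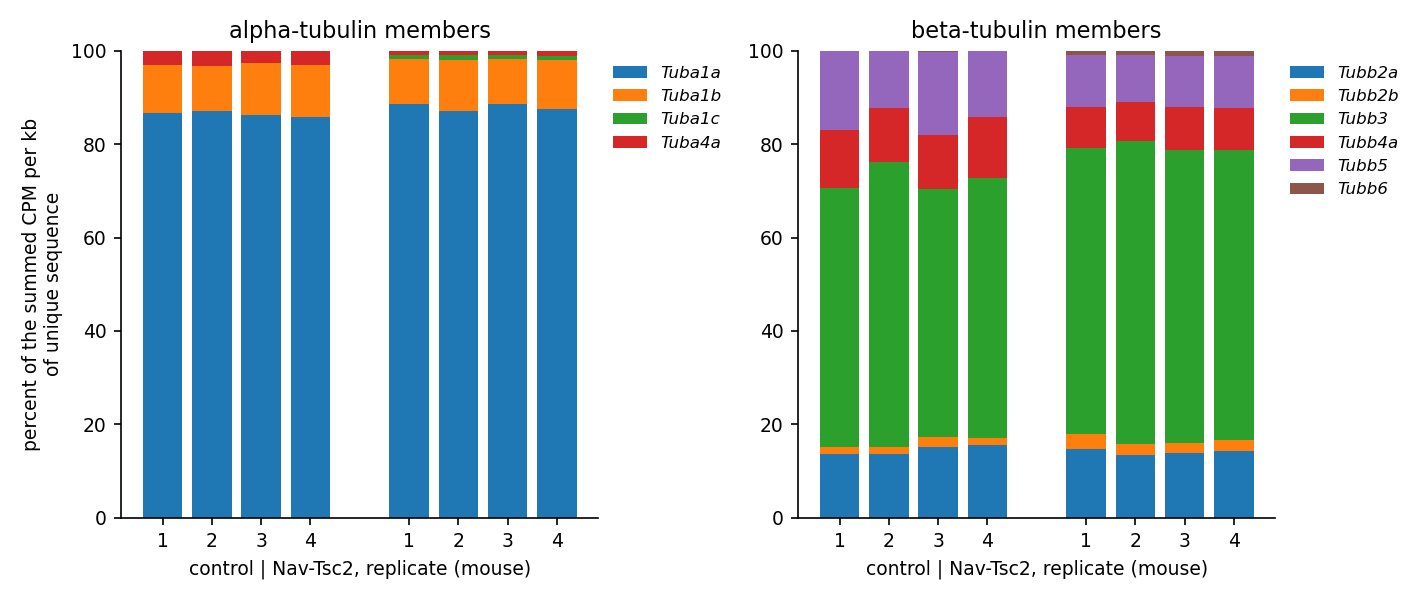
Share of each gene in the summed CPM per kb of unique sequence of the members of its family, as stacked bars for each of the 8 mice, alpha-tubulin on the left and beta-tubulin on the right. Tuba1a takes between 85.9% and 88.5% of the alpha bars in every mouse, and Tubb3 takes between 53.2% and 60.9% of the beta bars in control and between 61.3% and 64.9% in Nav-Tsc2 mice.

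The sexes were compared because each genotype had 2 male and 2 female mice. The genotype effect differed between the sexes for 0 of the 10 members at an adjusted p under 0.05 (edgeR's interaction test, in which 0.00582% of all genes were called). The unadjusted p of that test was under 0.05 for 1 member and for 1583 of all 17178 genes tested. The member was Tubb2b, with a log2 fold change of 1.05 ± 0.11 (SE) in male and 0.62 ± 0.11 (SE) in female mice, a difference of 0.42 ± 0.15 (SE, edgeR adjusted p = 0.463). Tuba1c was at 3.61 in male and 3.60 in female mice, Tubb6 at 3.37 and 3.34, and Tuba4a at -1.44 and -1.04. All 4 were called in each sex, where 15.4% of all genes were called in male and 7.07% in female mice. Tubb3 was called in female mice, at 0.54 (edgeR adjusted p = 0.0343), and not in male mice, at 0.27 (edgeR adjusted p = 0.160), and the difference of -0.27 ± 0.17 (SE), male minus female, did not pass (edgeR adjusted p = 0.685). With genotype in the fit, sex itself was past the threshold for 0 members (0.0291% of all genes were called), and Tubb3, with a log2 value of 0.24 male over female, was the only member at an unadjusted p under 0.05 (edgeR adjusted p = 0.722). The unadjusted edgeR p for sex was under 0.05 for 1144 of all 17178 genes tested.

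Outside the 10 members, 10 more tubulin genes were looked up, and 5 of them passed the filter on low counts. The remaining 5, Tuba3a, Tuba3b, Tuba8, Tubal3 and Tubb1, had a mean of at most 0.204 CPM in either genotype. Of the 5 tested, 2 were called lower in Nav-Tsc2 mice and 0 higher by edgeR and by DESeq2, beside 8.0% and 9.12% of all genes by edgeR. An unadjusted edgeR p under 0.05 was found for 4 of the 5, all with lower means, and for 5797 of all 17178 genes tested. Tubd1, delta-tubulin, a protein of centrioles, was at 7.49, 13.6, 12.3 and 13.1 CPM in control and at 4.01, 5.48, 3.09 and 1.73 CPM in Nav-Tsc2 mice (log2 fold change -1.70 ± 0.36 SE, edgeR adjusted p = 0.00886). Tubg2, a gamma-tubulin of the nervous system, was at 36.1, 30.2, 40.8 and 28.1 CPM in control and at 22.2, 27.5, 20.9 and 19.1 CPM in Nav-Tsc2 mice, with no overlap. Its log2 fold change of -0.59 ± 0.16 (SE, edgeR adjusted p = 0.0283) was close to the limit, and with a replicate block the adjusted p was 0.0545. Tubg1, the gamma-tubulin of most cells, had 84.7 ± 5.84 and 67.3 ± 3.96 CPM (SD, n = 4 mice each), and a log2 fold change of -0.33 (edgeR adjusted p = 0.0249), below the limit. Tubb4b, a widely expressed beta-tubulin, was at 508 ± 20.0 and 383 ± 35.5 CPM without overlap (log2 fold change -0.41, edgeR adjusted p = 0.00800), also below the limit. Tube1, epsilon-tubulin, had 4.95 ± 0.493 and 5.12 ± 3.14 CPM, and the sign of its log2 fold change of 0.05 (edgeR adjusted p = 0.953) turned under a replicate block, to -0.14.

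The genes that fold, modify, nucleate and sever tubulin were counted by list. Over the 62 tested genes of all these lists and the other tubulins, 5 were called lower and 1 higher, beside the 8.0% and 9.12% of all genes, so that the share called lower was near that of all genes and the share called higher was below it. With no limit on the fold change 12 were lower and 3 higher, beside 10.2% and 10.8% of all genes. Their median log2 fold change was -0.14. An unadjusted edgeR p under 0.05 was common, with 5797 of all 17178 genes tested. None of the 8 folding cofactor and autoregulation genes was called by edgeR or DESeq2, and 3 had an unadjusted edgeR p under 0.05 (median 0.15). The same held for the 14 genes of the chaperonin and prefoldin, which fold new tubulin, where 6 had an unadjusted p under 0.05 (median -0.18). The 3 acetylation genes and the 7 severing genes had 0 calls by either tool and 0 unadjusted p under 0.05.

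Of the 4 genes that remove or restore the C-terminal tyrosine of alpha-tubulin, 1 was called higher, by edgeR and by DESeq2. That was Vash2, one of the vasohibin carboxypeptidases that remove the tyrosine. It was at 9.44, 3.60, 2.91 and 5.70 CPM in control mice 1 to 4 and at 19.3, 19.8, 17.8 and 16.2 CPM in Nav-Tsc2 mice 1 to 4, with no overlap (log2 fold change 1.75 ± 0.34 SE, edgeR adjusted p = 0.00604). Of the 13 tested genes, out of 18 listed, that add or remove glutamate or glycine chains, 2 were called lower by edgeR and by DESeq2. The one with the smaller adjusted p was Agbl3, a carboxypeptidase that shortens such chains. It was at 14.0, 12.3, 13.3 and 16.9 CPM in control and at 6.67, 3.87, 5.42 and 8.21 CPM in Nav-Tsc2 mice (log2 fold change -1.22 ± 0.24 SE, edgeR adjusted p = 0.00696). Of the 8 genes of the gamma-tubulin ring complex, from which microtubules start, 1 was called lower by edgeR. DESeq2 and the fits without control mouse 3 or without library 3A also called 1 higher, Tubgcp6, another subunit, named after its values were seen (edgeR log2 fold change 0.60 ± 0.22 SE, adjusted p = 0.0780). Tubgcp2, a core subunit, was at 46.4, 41.5, 39.8 and 51.1 CPM in control and at 32.9, 29.2, 29.2 and 23.7 CPM in Nav-Tsc2 mice (log2 fold change -0.64 ± 0.13 SE, edgeR adjusted p = 0.00836).

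Marker genes of neuron types and of other cells also moved between the genotypes, and their part in the tubulin values was not tested. The counts below stand beside 9.12% called higher and 8.0% called lower by edgeR among all 17178 genes tested. By DESeq2, 1906 of these were called higher and 1769 lower, and 5797 had an unadjusted edgeR p under 0.05. Of 10 genes known to respond to axon injury, 6 were called higher by edgeR and 7 by DESeq2, with a sum of 4352 to 6189 CPM in control and 8166 to 9290 CPM in Nav-Tsc2 mice. Of 6 peptidergic markers, 3 were called lower (9535 to 19382 CPM against 4208 to 6980 CPM). Of 6 nonpeptidergic markers, 0 were called by edgeR or DESeq2 and 1 had an unadjusted edgeR p under 0.05 (511 to 1716 CPM against 1730 to 1892 CPM). Of 6 markers of myelinated neurons, 1 was called lower by edgeR (752 to 1334 CPM against 627 to 904 CPM), and DESeq2 called 1 lower and 1 higher. Glial markers summed to between 3105 and 3247 CPM in control and between 2082 and 2678 CPM in Nav-Tsc2 mice. DESeq2 called 2 of the 14 lower, and edgeR called 1 lower, S100b (939 to 98.6 CPM in the mean), which large sensory neurons also express. Without S100b the other 13 summed to between 2016 and 2447 CPM in control and between 2054 and 2491 CPM in Nav-Tsc2 mice, with overlap. Endothelial markers summed to 14.6 to 23.3 CPM against 19.8 to 35.7 CPM (3 of 6 tested called higher, 10 listed), macrophage markers to 2.21 to 8.07 CPM against 7.90 to 20.1 CPM (1 of 5 called higher, 10 listed) and markers of fibroblasts and mural cells to 84.7 to 254 CPM against 149.9 to 269 CPM (2 of 10 called higher), all with overlap. The endothelial markers Cdh5, Pecam1 and Cldn5 and the macrophage markers C1qa, Ptprc and Tyrobp had means of at most 0.422 CPM in either genotype. Called higher were the endothelial genes Flt1 (0.0338 to 8.56 CPM in the mean), Ly6c1 (0.0182 to 2.63 CPM) and Kdr (0.358 to 1.76 CPM), the macrophage gene Cx3cr1 (0.0328 to 5.71 CPM) and the mural cell genes Acta2 (0.131 to 7.25 CPM) and Pdgfrb (6.89 to 14.8 CPM). Csf1r (0.803 to 3.71 CPM) and Cd68 (0.495 to 2.03 CPM), also macrophage genes, were higher without overlap but not called by edgeR. DESeq2 called 2 macrophage markers higher, and 6 of the 10 listed had a higher mean in Nav-Tsc2 mice. So did 6 of the 10 endothelial markers and 7 of the 10 markers of fibroblasts and mural cells. Lower in the mean, and not called, were the endothelial genes Egfl7 (16.5 to 13.8 CPM) and Vwf (0.659 to 0.175 CPM) and the macrophage gene C1qb (1.75 to 0.574 CPM). The same held for the fibroblast and mural cell list genes Dcn (155 to 113 CPM), Lum (1.77 to 1.27 CPM) and Mgp (0.773 to 0.0801 CPM). Egfl7 and Dcn had the highest means of their lists in both genotypes. Red blood cell markers summed to 1.63 to 2.80 CPM against 0.473 to 0.672 CPM, with Hbb-bt at 0 in every library, and proliferation markers to 5.03 to 7.84 CPM against 5.00 to 19.4 CPM, and 0 of the 3 and 4 tested were called by edgeR, where 3 and 0 had an unadjusted p under 0.05. DESeq2 called 1 red blood cell marker lower and 0 proliferation markers. S100b, Calca, Nefh, Mrgprd, Snap25, Isl1, Prph, Flt1, Ly6c1, Kdr, Egfl7, Vwf, Cx3cr1, Csf1r, Cd68, C1qb, Acta2, Pdgfrb, Dcn, Lum, Mgp, Gm49450, Gm41396, Cdh5, Pecam1, Cldn5, C1qa, Ptprc, Tyrobp and Hbb-bt were singled out after their values were seen.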

How the data were processed

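RNA-seq counts of 24 libraries were used. The authors aligned 50-base reads of an unstranded kit to mm10 with STAR and counted uniquely matched reads per gene with HTSeq, and the deposited counts are not normalized. Versions, the annotation release and the strand setting are not given in the sources used here. A deposited table of the authors' DESeq2 comparison and 8 scaled columns was not used. For each mouse its 3 libraries were added up, genes were filtered with filterByExpr, scaled by TMM and tested with edgeR 4.0.16 (R 4.3.3), with limma 3.58.1 and DESeq2 1.42.0 for alternatives. Standard errors were derived from edgeR's F statistic. Amplified reads carry no molecular identifiers, so depth alone covers counting error only. Transcripts and coordinates are GENCODE on GRCm38, the same assembly as mm10. The scripts were tested on simulated data.

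Library values were scaled by TMM across the 24 libraries. Genes were named by a rule: the members, Tsc2, the other tubulin genes tested, and in each pathway list the gene with the smallest adjusted p called in each direction. Members and lists were chosen with earlier results of these data known. Pairing of the mice by replicate number was checked on 8440 genes with a mean of at least 10 CPM. Across genes, deviations of same-numbered mice from their genotype's mean correlated at 0.184, 0.185, 0.108 and 0.199 for replicates 1 to 4, each above 0.1, so the numbers were taken as pairs and a replicate block was fitted. On the scale of log2(CPM + 1) the correlations were 0.0831, 0.108, 0.0187 and 0.107. Mice of the same sex with unequal numbers correlated at 0.198 (control 1 with Nav-Tsc2 2), 0.0627 (2 with 1), 0.110 (3 with 4) and 0.185 (4 with 3), so number and shared sex cannot be told apart. The sums of marker genes without Snap25 or S100b were added after seeing the data.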

Additional observations from a re-analysis of the deposited data

How the results depend on the processing

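The 4 called members kept their direction and their calls under DESeq2 or its size factors, with upper-quartile scaling, without the filter on low counts, with sex or a replicate block as a term, with equal weights for libraries, in a fit of 24 libraries with a random effect of the mouse, with each mouse left out, and without control library 3A, which was chosen after seeing the data. Their log2 fold changes ran from 3.36 to 3.81 (Tuba1c), 3.11 to 3.72 (Tubb6), 0.76 to 0.92 (Tubb2b) and -1.34 to -1.09 (Tuba4a). With a replicate block these were 3.68, 3.49, 0.84 and -1.24, and the block changed no call of a member. Among other named genes it ended the call of Tubg2 (adjusted p = 0.0545), as did equal weights for libraries (0.0516) and leaving out any of 5 mice. The adjusted p of Tuba1b was under 0.05 with DESeq2 (0.0462), with equal weights for libraries (edgeR, 0.0479) and in the random-effect fit (limma, 0.0145). That of Tubb2a was under 0.05 with DESeq2 (0.0484), with sex as a term (edgeR, 0.0433) and in the random-effect fit (limma, 0.0102). Both genes stayed within the limit on the fold change in every fit. With no limit on the fold change, 5 members were higher, and 12 other tubulin pathway genes were lower and 3 higher, against 5 and 1. DESeq2 called 2 of those genes higher, the random-effect fit 4 and the fit without library 3A 2, and leaving out each mouse gave 1 to 3, with 3 without control mouse 3 or 4. The random-effect fit used a single correlation of 0.0631 among the libraries of a mouse for all genes, and so treated libraries as nearly independent. Every member had an adjusted p under 0.05 in it. The random-effect fit called 2705 genes higher over all genes, against 1567, and 1339 lower, against 1374. There all genes had a median of 0.14 (log2), and all 10 members kept their direction relative to it (Tubb2a 0.07, Tuba1b 0.11, Tuba1a 0.15). In the order of levels, 4 members in control and 5 in Nav-Tsc2 mice changed place when divided by all exon sequence, 2 and 4 with a single coding transcript, a choice added later, 2 in control mice 2 and 4 alone and 4 in Nav-Tsc2 mouse 2 alone. Shares without division by length differed, for example 10.9% and 4.01% for Tuba4a. Tube1 turned to -0.14 with the block, to -0.02 without control mouse 4, and to -0.0024 and -0.41 without Nav-Tsc2 mice 2 and 3 (0.27 without mouse 4). The cause of these changes was not tested.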
